A study of Homo sapiens with 8 samples.

Results

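The genes examined here are 47 genes of the cell division cycle, 20 that copy DNA in S phase and 27 that carry cells into, through and out of mitosis. They were chosen by function, with earlier results of these data already known. Their symbols were matched to the NCBI gene numbers that name each gene in the count files. All 47 were found among 25702 gene numbers and all 47 passed the filter on low counts that left 14333 genes. RNA sequencing was done on SUIT2, an established human pancreatic ductal adenocarcinoma (PDA) cell line, in a study of the homeobox transcription factor Engrailed-1 (EN1) in this cancer. Cells carried a scramble short hairpin RNA (shScr, 4 libraries) or 1 of 2 hairpins against EN1 (shEn1_1 and shEn1_2, 2 libraries each). The EN1 hairpins were in the lentiviral pLKO.1 puro vector, and the vector of the scramble hairpin was not named. All 8 libraries came from one line, and the labels list no time point, dose or batch. Nothing says that the libraries of a group came from separate cultures, so every p-value measures the spread between these libraries, which may be technical.

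Proliferating cells pass from a growth phase into S phase, in which the genome is copied, and on through a second gap into mitosis, in which the copies are separated. The genes for both steps are transcribed in waves. E2F transcription factors drive the S phase wave from E2F sites near gene starts, while the mitosis wave peaks later and depends on the DREAM and MYB-MuvB complexes, which bind a short element called the cell cycle genes homology region (CHR), often beside CCAAT boxes bound by NF-Y. In a bulk RNA sample of an unsynchronised culture, a phase gene's level is known to reflect both how many cells are in that phase and how much RNA each holds, and these measurements cannot tell fewer cells from less RNA per cell.

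Most member promoters that could be matched held the motif of their own phase. The sequences come from RefSeq, in windows of 250 bases before and 50 bases after each annotated start, and 39 of the 47 members were matched there (18 S phase and 21 mitosis genes). MCM4, MCM5, FOXM1, AURKA, TTK, UBE2C, TPX2 and BIRC5 were not matched. The motifs were searched on both strands as exact letters: the E2F site as TTTCCCGC, TTTCGCGC, TTTGCCGC or TTTGGCGC, the CHR as TTTGAA or TTCGAA, the CCAAT box as CCAAT and the GC box as GGGCGG. Overlapping matches were each counted, and matches of different motifs may overlap. The examples below, 4 from each phase, show the 160 bases before the start, 5′ to 3′ on the strand of the gene, with E2F sites in capitals for the S phase genes and the CHR in capitals for the mitosis genes. The S phase examples are a helicase subunit, a helicase-activating subunit, the replication clamp and E2F1 itself.

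MCM6: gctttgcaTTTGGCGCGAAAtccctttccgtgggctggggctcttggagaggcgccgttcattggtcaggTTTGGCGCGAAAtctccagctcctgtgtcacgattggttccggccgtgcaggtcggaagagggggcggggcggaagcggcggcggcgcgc
GINS2: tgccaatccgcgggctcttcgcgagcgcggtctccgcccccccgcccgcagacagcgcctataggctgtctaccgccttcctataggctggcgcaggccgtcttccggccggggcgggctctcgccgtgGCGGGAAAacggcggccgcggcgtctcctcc
PCNA: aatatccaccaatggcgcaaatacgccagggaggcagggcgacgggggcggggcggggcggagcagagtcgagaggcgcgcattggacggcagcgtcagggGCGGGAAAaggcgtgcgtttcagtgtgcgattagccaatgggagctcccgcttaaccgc
E2F1: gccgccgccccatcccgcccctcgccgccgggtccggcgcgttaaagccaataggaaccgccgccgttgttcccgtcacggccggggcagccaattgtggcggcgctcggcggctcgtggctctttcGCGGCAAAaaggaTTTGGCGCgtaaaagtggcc

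The mitosis examples are a cyclin, the activator that starts anaphase, a spindle motor and the proliferation antigen Ki-67.

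CCNB2: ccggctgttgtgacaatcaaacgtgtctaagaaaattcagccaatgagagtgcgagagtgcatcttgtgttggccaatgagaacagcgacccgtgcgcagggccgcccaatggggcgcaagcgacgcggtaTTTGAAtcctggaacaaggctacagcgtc
CDC20: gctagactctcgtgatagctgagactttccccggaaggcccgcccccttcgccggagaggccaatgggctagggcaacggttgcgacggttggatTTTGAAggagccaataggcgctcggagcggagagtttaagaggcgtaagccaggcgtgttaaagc
KIF11: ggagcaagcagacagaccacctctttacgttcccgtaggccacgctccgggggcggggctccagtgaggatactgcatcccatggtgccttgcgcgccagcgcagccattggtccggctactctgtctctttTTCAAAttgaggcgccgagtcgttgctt
MKI67: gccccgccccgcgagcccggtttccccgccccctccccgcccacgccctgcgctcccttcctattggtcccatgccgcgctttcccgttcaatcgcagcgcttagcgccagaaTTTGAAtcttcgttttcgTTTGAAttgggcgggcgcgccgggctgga

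The same letters were found once each in the GRCh37 genome (the build that hg19 corresponds to), with MCM6 at chr2:136634014-136634173 (minus strand), GINS2 at chr16:85722561-85722720 (minus strand), PCNA at chr20:5107269-5107428 (minus strand) and E2F1 at chr20:32274192-32274351 (minus strand). For the mitosis genes the stretches were CCNB2 at chr15:59397185-59397344 (plus strand), CDC20 at chr1:43824492-43824651 (plus strand), KIF11 at chr10:94352727-94352886 (plus strand) and MKI67 at chr10:129924688-129924847 (minus strand). All 8 stretches end at a RefSeq start and lie upstream of it. The 4 matches in MCM6 form 2 overlapping pairs, since TTTGGCGC and the reverse of TTTCGCGC share bases, and E2F1 held 2 matches. MKI67 held 2 copies of the CHR, first bases 47 and 29 before the start, and in CCNB2 and KIF11 the CHR began 29 and 28 bases before it, in KIF11 on the other strand.

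An E2F site was present for 13 of the 18 S phase genes (72.2%), 3 of the 21 mitosis genes (14.3%) and 3.99% of the 27305 genes in the table. The S phase genes with a match were CDC6, CDT1, MCM2, MCM3, MCM6, MCM7, GINS2, POLA1, POLE2, PCNA, TYMS, E2F1 and UHRF1. The CHR showed the reverse, with 16 of 21 mitosis genes (76.2%), 2 of 18 S phase genes (11.1%) and 19.5% of all genes. CDK1, NUSAP1 and CENPA carried both an E2F site and a CHR, and MCM6 and RRM1 were the S phase genes with a CHR. Of the 16 mitosis genes with a CHR, 14 had it between 80 bases before and 20 bases after a start. CCAAT boxes were found for 19 of 21 mitosis genes (90.5%), 12 of 18 S phase genes (66.7%) and 39.7% of all genes, and GC boxes for 76.2%, 77.8% and 48.3% in that order. Among further genes of these pathways, listed below, an E2F site was present for 13 of 32 matched replication genes (40.6%), a lower share than among the S phase members. A CHR was present for 31 of 40 matched mitosis genes (77.5%). These shares describe letters in a window and not binding.

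**Figure D1:**
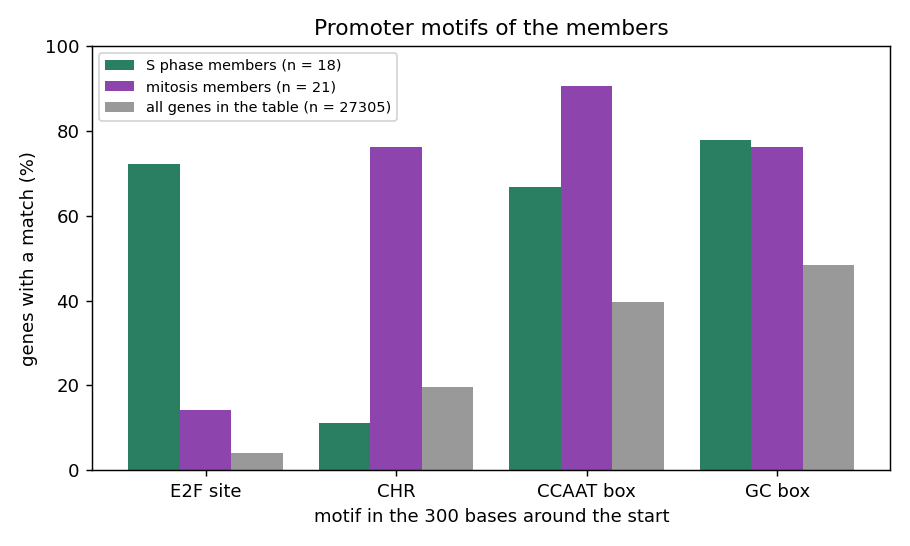
The bars give the percentage of genes with at least 1 match to each motif (x axis) within 300 bases around the start, for the S phase members, the mitosis members and all genes in the RefSeq table. E2F sites were found for 72.2% of the S phase genes and 14.3% of the mitosis genes, the CHR for 11.1% and 76.2%.

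The 8 libraries held 33423590 to 37810604 counts in genes. Values are CPM, read counts scaled to the library total with a trimmed mean of M values (TMM) factor, and per-library values are always given in the order shScr_1, shScr_2, shScr_3, shScr_4, then shEn1_1.1, shEn1_1.2, shEn1_2.1 and shEn1_2.2. EN1, the targeted gene, had 4.10, 4.50, 4.94 and 2.51 CPM in the shScr libraries and 5.77, 5.41, 1.35 and 6.70 CPM in the libraries labelled shEn1. The arms overlapped, the mean was 4.01 ± 1.06 CPM (SD, n = 4) against 4.81 ± 2.37 CPM (n = 4), and the log2 fold change was 0.26 (SE 0.432, edgeR adjusted p = 1.00). That value rested on single libraries, at 0.057 without shEn1_2.2, 0.089 without shScr_4 and 0.57 without shEn1_2.1, and limma-voom gave 0.040. Mean EN1 RNA in these counts was not lower in the libraries labelled shEn1. With an SE of 0.432, a lower level under those labels was not excluded. The knockdown was thus not seen in these counts, and the treated libraries are called by their label for that reason. Other measurements of the knockdown were not analysed here. The libraries shScr_4 and shEn1_2.1 had both the lowest EN1 values and the highest TMM factors (1.06 and 1.07), and they lay closer to each other than to any library of their own label over all genes (root mean square log2 difference 0.221, against 0.268 to 0.579 for the other 27 pairs). Of the epithelial markers, KRT8 (6094 to 9573 CPM), KRT18 (3586 to 5628 CPM) and EPCAM (234 to 589 CPM) were present in every library. KRT7, KRT19, EPCAM and CDH1 each had their lowest 2 values in shScr_4 and shEn1_2.1. KRT8 and KRT18 instead had their lowest 2 values in shScr_3 and shEn1_1.1. Of 11 fibroblast, leukocyte and endothelial markers, 6 (COL1A2, DCN, LUM, PTPRC, CD3E and CDH5) had no count in any library. PECAM1, VWF and PDGFRB reached at most 0.603, 0.412 and 0.241 CPM, COL1A1 (collagen I) had 1.02 to 3.99 CPM and CD68, a lysosomal protein used as a macrophage marker, 7.75 to 34.6 CPM.

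Every member was expressed in every library, and the range was wide within both phases. Compared per kilobase of exon, mean levels ran from 8.05 to 109.6 CPM per kb among S phase genes (median 48.98) and from 6.18 to 249.6 among mitosis genes (median 47.3). Of the 10 highest members, 8 belonged to mitosis. The top 4 were CDC20 at 249.6 ± 24.8 CPM per kb (SD, n = 8), UBE2C at 224 ± 20.6, CCNB1 at 209 ± 20.4 and TPX2 at 198 ± 12.5, each overlapping its neighbour in this order. A gap then separated TPX2 from PLK1 at 119.8 ± 16.2, and it was the only one of the 46 steps between neighbours at which the library ranges did not overlap. CENPE (6.18 ± 1.29), POLA1 (8.05 ± 1.41) and POLE2 (9.10 ± 1.71) closed the order. The high end therefore held the activator and the ubiquitin-conjugating enzyme of the anaphase-promoting complex with cyclin B1, and the low end held a very long kinetochore motor and polymerase subunits. Exon length was taken as the union over protein-coding transcripts, which understates the level of genes that use a short isoform.

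**Figure D2:**
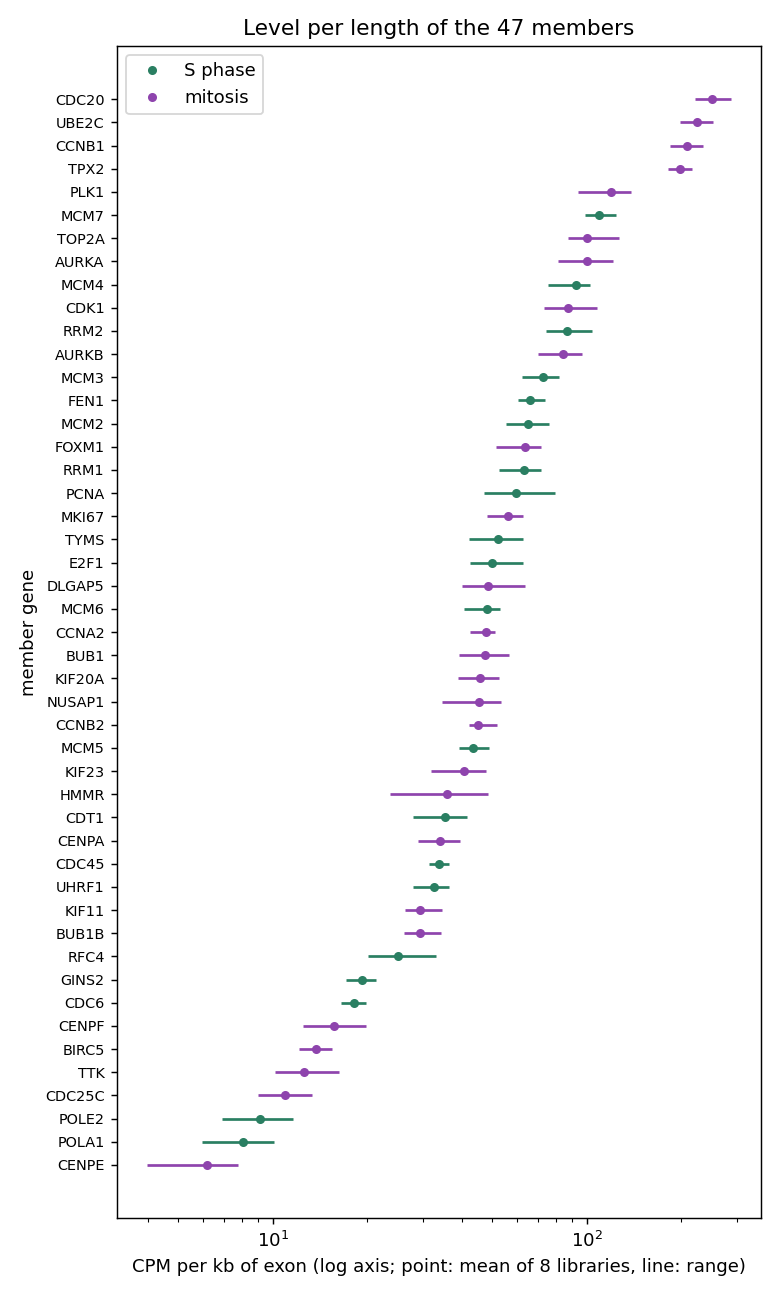
Each point is a member's mean level over 8 libraries in CPM per kb of exon (log axis), the line spans the lowest to the highest library, and members are in order of level. CDC20 was highest at 249.6 and CENPE lowest at 6.18 CPM per kb, and only between TPX2 and PLK1 did neighbouring ranges stay apart.

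No gene of either phase passed the test between the shScr libraries and those labelled shEn1. Of the 14333 genes, 0 (0%) passed an adjusted p of 0.05 in edgeR's quasi-likelihood test, and 0 of the 47 members did. At an unadjusted p under 0.05 the test marked 44 genes (0.307%), again with 0 members, and DESeq2 called 2 genes, neither a member. Where no gene differs, a calibrated test marks a share of about 0.05, so these p-values ran large. The absence of calls is therefore not a sign that levels were equal. The arms did not overlap in CPM for 60 genes (0.419%) and for 0 members. Under the shEn1 labels 11 of the S phase genes had the higher mean level and 9 the lower, at a median log2 fold change of 0.0013 and a range from −0.054 to 0.071. For the mitosis genes these counts were 11 and 16, at a median of −0.014 and a range from −0.15 (CDC25C) to 0.074 (MKI67). The median over all genes tested was −0.0028. The standard error was larger than the difference for 46 of the 47 members, at a median of 0.125 for S phase and 0.137 for mitosis genes on the log2 scale. The exception was CCNB2, at −0.11 (SE 0.0984), which had the smallest unadjusted p of any member, 0.307.

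**Figure D3:**
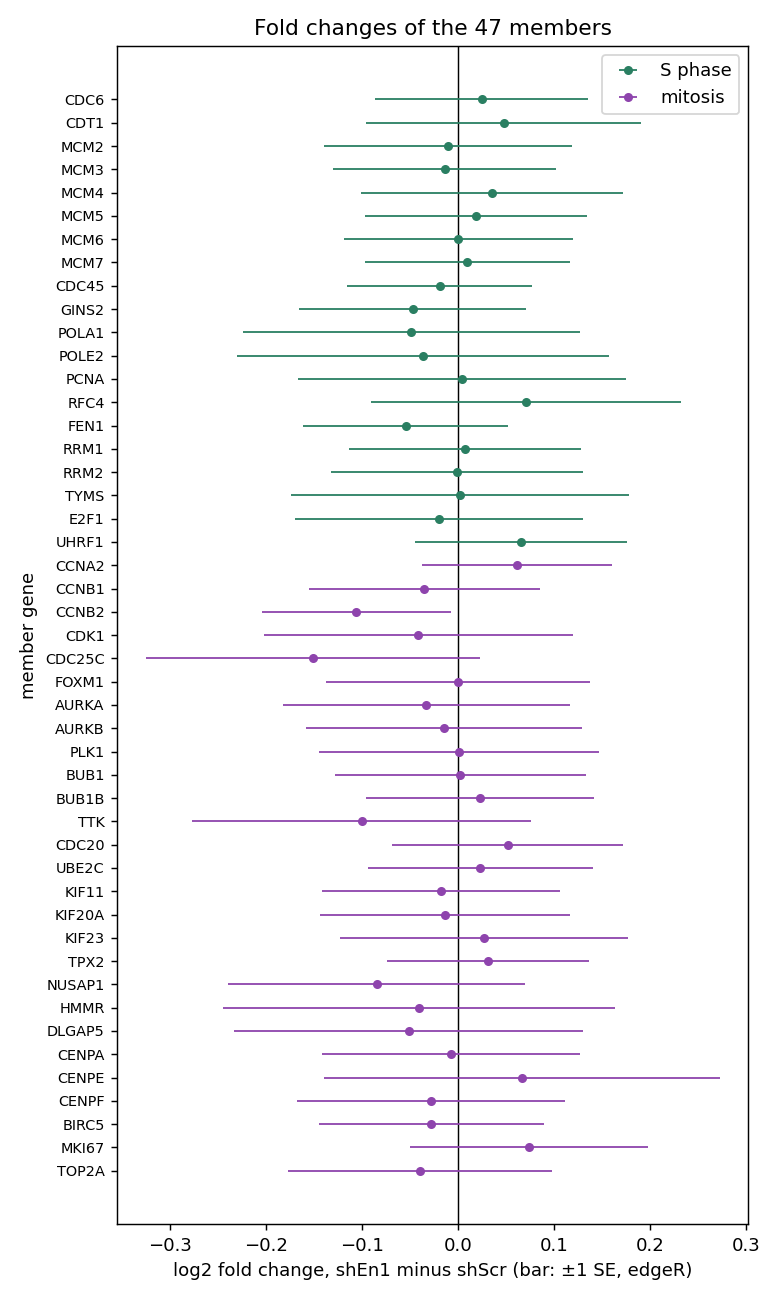
Each point is a member's log2 fold change, libraries labelled shEn1 minus shScr, and the bar is ±1 SE from edgeR (4 libraries per arm). Values ran from −0.15 for CDC25C to 0.074 for MKI67, and no member passed the test.

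Against shScr, the shEn1_1 libraries had 12 of 20 S phase genes and 14 of 27 mitosis genes higher (medians 0.00997 and 0.00797, log2), and the shEn1_2 libraries had 8 and 10 higher (medians −0.033 and −0.020). No member reached an unadjusted p of 0.05 in either comparison, beside 0.656% and 0.300% of all genes. Both comparisons use the same shScr libraries. Between the hairpins, shEn1_2 against shEn1_1, 0 members reached it beside 1.07% of all genes, and no adjusted p passed. With 2 libraries per hairpin these comparisons are less precise than the pooled one, and their shares of all genes are likewise far below 0.05.

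The MCM genes encode the 6 subunits of the ring-shaped helicase that is loaded at origins before S phase. MCM2 had 268, 264, 309.6 and 227 CPM across the shScr libraries and 252, 287, 228 and 294 CPM across the shEn1-labelled ones. MCM4 had 419, 451, 432 and 337 CPM across the shScr libraries and 432, 449, 339 and 460.0 CPM across the shEn1-labelled ones, and MCM6 had 182, 199, 186 and 153 CPM across the shScr libraries and 194, 175, 158 and 194 CPM across the shEn1-labelled ones. In all 3, shScr_4 and shEn1_2.1 were the lowest libraries, so the low values stood one in each arm. MCM3 did the same, from 208 CPM in shScr_4 to 275 CPM in shEn1_1.1. MCM7 did not, with 465, 427, 460.5 and 465 CPM across the shScr libraries and 409, 459.9, 445 and 516 CPM across the shEn1-labelled ones, its log2 fold change was 0.0099 (SE 0.106, edgeR adjusted p = 1.00) and it kept to a range of 1.26-fold over all libraries. MCM5 (139 to 173 CPM) was lowest in shScr_2. The loaders varied little or in another order: CDC6, which brings the helicase to origins, spanned 79.3 to 95.8 CPM, and CDT1, its partner that is destroyed once S phase begins, had 82.6, 85.3, 99.7 and 103 CPM across the shScr libraries and 74.5, 106, 91.1 and 111 CPM across the shEn1-labelled ones, and its log2 fold change was 0.048 (SE 0.143, edgeR adjusted p = 1.00). CDT1 was lowest in shEn1_1.1 and highest in shEn1_2.2, both labelled as knockdown.

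Genes acting at the replication fork spread more widely. POLA1, the catalytic subunit of the polymerase that lays down primers, had 53.1, 55.3, 57.2 and 36.8 CPM across the shScr libraries and 62.4, 46, 40.6 and 46.7 CPM across the shEn1-labelled ones, a 1.70-fold range and a log2 fold change of −0.049 (SE 0.175, edgeR adjusted p = 1.00). PCNA, the sliding clamp, had 87, 98.4, 82.2 and 65.9 CPM across the shScr libraries and 111, 76.2, 70.6 and 76.7 CPM across the shEn1-labelled ones. Its value in shEn1_1.1 stood above all others, as did that of RFC4, a subunit of the loader that places the clamp, at 69.8 CPM against 42.4 CPM in shScr_4. POLE2, a subunit of the leading-strand polymerase, ranged from 15.5 CPM in shScr_4 to 25.9 CPM in shScr_1. POLA1, PCNA and POLE2 were again lowest in shScr_4 and shEn1_2.1. By contrast CDC45 (69.9 to 80.7 CPM) and GINS2 (55.1 to 68.6 CPM), which activate the helicase, and FEN1 (133 to 162 CPM, log2 fold change −0.054, SE 0.107, edgeR adjusted p = 1.00), the flap nuclease of lagging strands, stayed within 1.25-fold, and CDC45 had the narrowest range of the 47 at 1.15-fold.

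The nucleotide supply genes did not share the low values of shScr_4 and shEn1_2.1. TYMS, which makes thymidylate, had 71.7, 67.9, 96.7 and 101 CPM across the shScr libraries and 96.2, 70.8, 100.2 and 70.5 CPM across the shEn1-labelled ones. The values formed a low set of 4 and a high set of 4, each with 2 libraries of either arm, and the log2 fold change was 0.0021 (SE 0.176, edgeR adjusted p = 1.00). RRM2, the regulated subunit of ribonucleotide reductase, ranged from 302 to 423 CPM (log2 fold change −0.00073, SE 0.131, edgeR adjusted p = 1.00), and RRM1, its large subunit, from 180.1 CPM in shScr_3 to 245 CPM in shScr_2. E2F1, the transcription factor of the S phase wave, had 115, 117, 142 and 168 CPM across the shScr libraries and 116, 125, 157 and 136 CPM across the shEn1-labelled ones. It was highest in shScr_4 and shEn1_2.1, the libraries in which MCM2, MCM3, MCM4, MCM6, PCNA, POLA1 and POLE2 were lowest, and its log2 fold change was −0.019 (SE 0.150, edgeR adjusted p = 1.00). UHRF1, which takes part in copying DNA methylation to the new strand, spanned 144 to 187 CPM, and its log2 fold change was 0.066 (SE 0.111, edgeR adjusted p = 1.00).

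Genes of mitotic entry centre on the cyclin B and CDK1 kinase. CCNB1 (cyclin B1) had 481, 479, 397 and 378 CPM across the shScr libraries and 473, 410.5, 407 and 403 CPM across the shEn1-labelled ones, and its log2 fold change was −0.035 (SE 0.120, edgeR adjusted p = 1.00). CDK1 had 219.8, 217, 156 and 162 CPM across the shScr libraries and 230.1, 163, 178 and 163 CPM across the shEn1-labelled ones. Both were high in shScr_1, shScr_2 and shEn1_1.1 and lower in the other 5 libraries, so the split ran through both arms. CCNB2 (cyclin B2) ranged over 111 to 136 CPM and CCNA2 (cyclin A2) over 116 to 140.3 CPM. CDC25C, the phosphatase that switches CDK1 on, had 27.1, 34.3, 23.5 and 33.7 CPM across the shScr libraries and 25.1, 24.2, 34.3 and 23.2 CPM across the shEn1-labelled ones. Its values were near 34 CPM in shScr_2, shScr_4 and shEn1_2.1 and at or below 27.1 CPM elsewhere, and its log2 fold change, at −0.15 (SE 0.174, edgeR adjusted p = 1.00), was the lowest of the 47. FOXM1, a transcription factor of the mitosis wave, had 235, 245, 190.2 and 260.1 CPM across the shScr libraries and 188, 245, 262 and 236 CPM across the shEn1-labelled ones.

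Among the mitotic kinases, AURKA (Aurora A, for spindle poles) had 311, 285, 236 and 354 CPM across the shScr libraries and 261, 276, 353 and 269.6 CPM across the shEn1-labelled ones. PLK1 (polo-like kinase) had 301, 258, 237 and 324 CPM across the shScr libraries and 219, 305, 312 and 284 CPM across the shEn1-labelled ones, and AURKB (Aurora B, for chromosome attachment) had 141, 110.5, 103 and 141 CPM across the shScr libraries and 104, 137, 135 and 115 CPM across the shEn1-labelled ones. AURKA, PLK1 and FOXM1 were highest in shScr_4 and shEn1_2.1, while AURKA, AURKB, PLK1 and FOXM1 were lowest in shScr_3 and shEn1_1.1, and the log2 fold change of AURKA was −0.033 (SE 0.149, edgeR adjusted p = 1.00). The checkpoint kinases followed another order. TTK, which starts the spindle checkpoint, had 65.7, 62.6, 41.9 and 41.2 CPM across the shScr libraries and 57.9, 45.7, 46.1 and 47.7 CPM across the shEn1-labelled ones, and its log2 fold change was −0.10 (SE 0.176, edgeR adjusted p = 1.00). BUB1 spanned 169 to 246 CPM and BUB1B 97.1 to 127 CPM, both lowest in shScr_3. At mitotic exit, CDC20 had 506, 419, 429 and 414 CPM across the shScr libraries and 439, 519.8, 399 and 475 CPM across the shEn1-labelled ones (log2 fold change 0.052, SE 0.120, edgeR adjusted p = 1.00) and UBE2C ranged over 254 to 323 CPM.

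HMMR, a spindle assembly factor and hyaluronan receptor, varied most of all 47 genes. It had 148, 167, 81.2 and 104 CPM across the shScr libraries and 136, 111, 123 and 116 CPM across the shEn1-labelled ones, a 2.05-fold range, and a log2 fold change of −0.041 (SE 0.204, edgeR adjusted p = 1.00). The lowest and the highest value were both in the shScr arm. TPX2, which activates Aurora A on microtubules, had 778, 714, 652 and 682 CPM across the shScr libraries and 756, 727, 742 and 664 CPM across the shEn1-labelled ones, and its log2 fold change was 0.032 (SE 0.105, edgeR adjusted p = 1.00). The motors KIF11, KIF20A and KIF23 ranged over 137 to 180.2 CPM, 129.6 to 175 CPM and 119.8 to 179.8 CPM, and the spindle proteins NUSAP1 and DLGAP5 over 110.0 to 169 CPM and 125 to 198 CPM. NUSAP1 was lowest in shEn1_2.2 and DLGAP5 in shEn1_1.2, libraries labelled with different hairpins.

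At the centromere, CENPE, the kinetochore motor, had 68.1, 60.4, 45.3 and 51.3 CPM across the shScr libraries and 62, 64.4, 37 and 72.5 CPM across the shEn1-labelled ones, a 1.96-fold range and a log2 fold change of 0.067 (SE 0.206, edgeR adjusted p = 1.00). Its lowest and highest libraries were the 2 labelled shEn1_2. CENPF had 158, 204, 128 and 163 CPM across the shScr libraries and 163, 150.1, 173 and 155 CPM across the shEn1-labelled ones, and its log2 fold change was −0.028 (SE 0.139, edgeR adjusted p = 1.00). CENPA, the centromeric histone, spanned 40.2 to 55 CPM, and BIRC5 (survivin) 38.5 to 49.1 CPM. MKI67, the gene of Ki-67, had 674, 791, 647 and 664 CPM across the shScr libraries and 611, 792, 726 and 793 CPM across the shEn1-labelled ones, and its log2 fold change was 0.074 (SE 0.124, edgeR adjusted p = 1.00). TOP2A, which untangles sister DNA, had 573, 736, 508 and 549.5 CPM across the shScr libraries and 640.4, 527, 601 and 534 CPM across the shEn1-labelled ones, and its log2 fold change was −0.040 (SE 0.137, edgeR adjusted p = 1.00). The MKI67 values near 790 CPM came from shScr_2, shEn1_1.2 and shEn1_2.2.

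**Figure D4:**
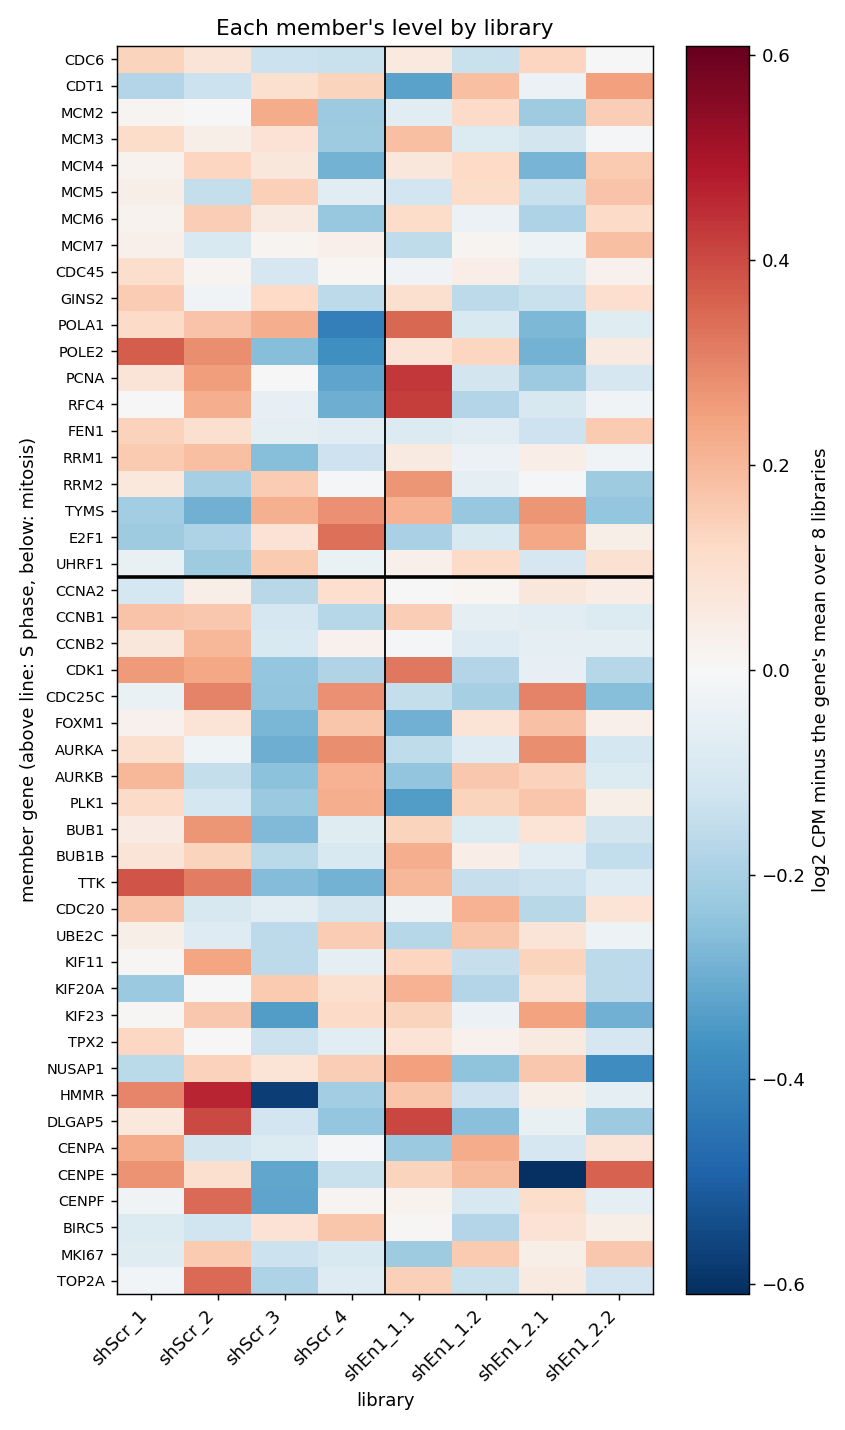
Colours give each member's log2 CPM minus its own mean over the 8 libraries (columns, shScr left of the thin line), with S phase genes above the thick line and mitosis genes below. The shScr_4 column is blue for many S phase genes and the shScr_3 column for many mitosis genes, and no block of colour follows the arms.

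Members varied less over the libraries than other genes. The highest library was a median of 1.36 times the lowest for S phase genes and 1.39 times for mitosis genes, against 1.68 times for all genes tested, many of which have fewer counts. HMMR alone exceeded 2-fold, against 4934 of the 14333 genes. The low values were not spread evenly over the libraries: shScr_4 was the lowest library for 9 of 20 S phase genes (14.8% of all genes), and shScr_3 for 12 of 27 mitosis genes (13.6% of all genes). Taken in pairs, shScr_4 and shEn1_2.1 were the lowest 2 libraries for 7 of the 20 S phase genes (35%), 1 of the 27 mitosis genes and 19.2% of all genes, and shScr_3 and shEn1_1.1 for 6 of the 27 mitosis genes (22.2%), 0 of the S phase genes and 6.83% of all genes. Of these, shScr_4 and shEn1_2.1 stood apart over many other genes too, with the EN1, TMM, KRT7 and KRT19 values given above. The part of those differences in the members' values was not tested. For shScr_3 and shEn1_1.1 the TMM factors were 1.00 and 0.974, and their share of all genes was near the 5.20% of shScr_1 and shScr_2. KRT8 and KRT18 were lowest in shScr_3 and shEn1_1.1.

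Summed over the members, the S phase genes made 3127 to 3475 CPM and the mitosis genes 5434 to 6628 CPM. The S phase sum was 3332 ± 152 CPM in shScr and 3347 ± 151 CPM in the libraries labelled shEn1 (SD, n = 4 each), and the mitosis sum was 6121 ± 515 and 6128 ± 171 CPM. The ratio of the sums, which does not depend on scaling, was 0.536, 0.500, 0.639 and 0.517 in the shScr libraries and 0.557, 0.545, 0.498 and 0.589 in the libraries labelled shEn1. Means were 0.548 ± 0.0626 and 0.547 ± 0.0380, and the libraries of the arms overlapped throughout. The highest ratio, in shScr_3, went with the lowest mitosis sum, and the lowest, in shEn1_2.1, with a low S phase sum.

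**Figure D5:**
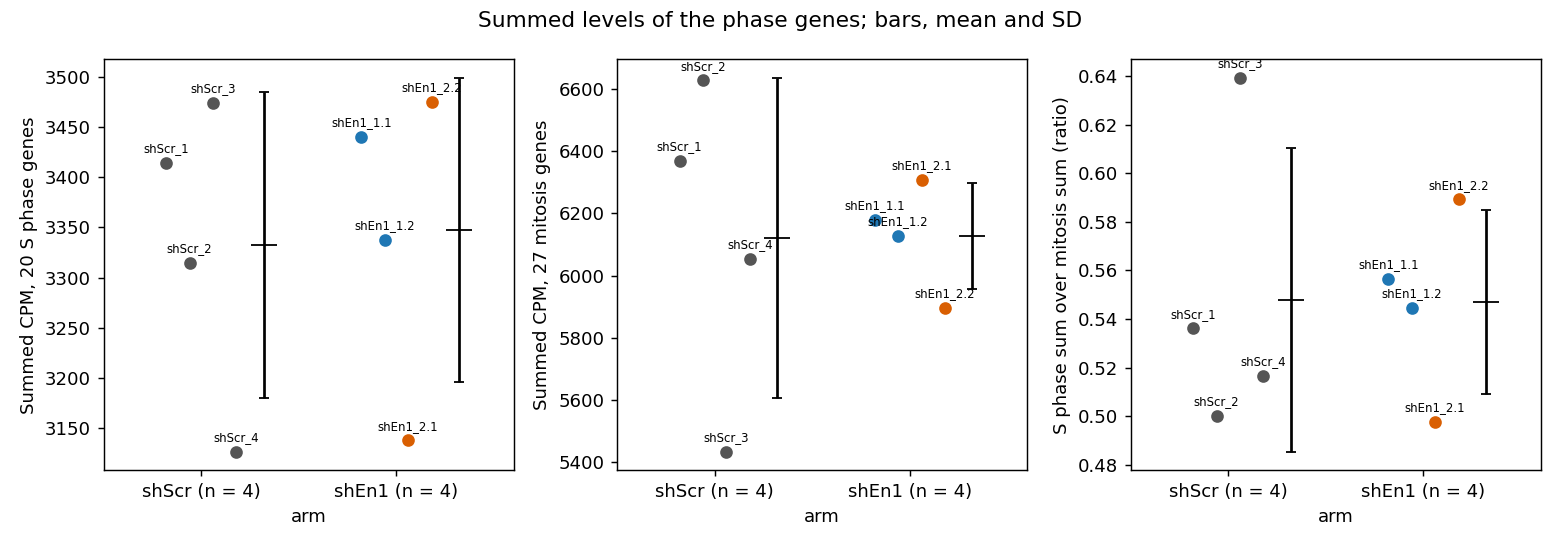
Points are single libraries, by arm on the x axis, for the summed CPM of 20 S phase genes, the summed CPM of 27 mitosis genes and their ratio (y axes, which do not start at 0), and bars give the mean and SD of 4 libraries. The S phase sums of shScr_4 and shEn1_2.1 lay lowest, the ratio of shScr_3 was highest at 0.639, and the arms overlapped in each panel.

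The comparison was also made without 2 pairs of libraries that were often lowest together, shScr_4 with shEn1_2.1 and shScr_3 with shEn1_1.1. In the remaining 4 libraries, shScr_1 and shScr_2 against shEn1_1.2 and shEn1_2.2, 13 of 47 members reached an unadjusted p of 0.05 (1512 of 14273 genes, 10.6%), and 0 passed after adjustment, the smallest adjusted p of a member being 0.401 (edgeR, 2 libraries per arm). CDT1 and UHRF1 were higher and PCNA, CCNB1, CDK1, CDC25C, BUB1, TTK, KIF11, NUSAP1, HMMR, DLGAP5 and TOP2A lower under the shEn1 labels. The log2 differences were largest for DLGAP5 (−0.48, SE 0.118), HMMR (−0.47, SE 0.103) and TTK (−0.46, SE 0.111). The mitosis median became −0.16 and the S phase median −0.058. Those libraries were left out after their values were known, so these p-values are a description. With all 8 libraries the same genes gave log2 differences of −0.051, −0.041 and −0.100, and no call.

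The other genes of these pathways gave the same counts of calls. Of 40 further replication genes 17 were higher and 23 lower, of 45 further mitosis genes 17 were higher and 28 lower, and of 19 cell cycle regulators 12 were higher and 7 lower, with 0 called in each list and medians of −0.0063, −0.018 and 0.031 on the log2 scale. In the further mitosis genes shScr_3 was the lowest library for 20 of 45, near its share among the members. It was also lowest for 8 of the 19 regulators (42.1%). Among the further replication genes shScr_4 was lowest for 10 of 40 (25%), a smaller share than among the S phase members, and shScr_3 for as many. The lowest 2 libraries were shScr_4 and shEn1_2.1 for 8 of these 40 genes (20%), near the 19.2% of all genes. CCNE2 (cyclin E2) spanned 10.9 to 24.6 CPM (log2 fold change −0.11, SE 0.249, edgeR adjusted p = 1.00) and KIFC1, a spindle motor, 1.09 to 3.22 CPM (log2 fold change 0.23, SE 0.344, edgeR adjusted p = 1.00), each the widest of its list. Among the regulators MYBL1, a MYB family transcription factor, had 52.6, 43.9, 31 and 153 CPM across the shScr libraries and 35, 49.4, 165 and 44.7 CPM across the shEn1-labelled ones. The values of shScr_4 and shEn1_2.1 stood far above the other 6, one in each arm, and the log2 fold change was 0.069 (SE 0.612, edgeR adjusted p = 1.00). E2F4, the E2F of the DREAM complex, was lowest in the same libraries, with 124, 111, 114 and 59.3 CPM across the shScr libraries and 109, 147, 62.1 and 133 CPM across the shEn1-labelled ones, and TFDP2, a dimer partner of E2F proteins, was highest in them, with 25.8, 29.4, 31.8 and 52.1 CPM across the shScr libraries and 30.8, 21.4, 53.5 and 26.1 CPM across the shEn1-labelled ones. E2F4 and TFDP2 were singled out after their values were seen.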

How the data were processed

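The authors deposited raw read counts per gene for each library, aligned per the study's methods with HISAT2 to hg19 and counted with featureCounts. The submitters' processing notes name mm9, the murine build. Tool versions, strand setting and annotation were not given in the sources used here, so reads shared with overlapping or antisense genes could not be separated, and PCNA and AURKA have processed pseudogenes that may take some of their reads. Gene numbers were named from the RefSeq GRCh38.p14 table (23696 of 25702 matched), positions and exon lengths come from GENCODE v44 lifted to GRCh37, and the promoter table is RefSeq GRCh38.p14 (35116 windows), its printed stretches matched exactly in GRCh37. In R 4.3.3, genes were filtered with filterByExpr (minimum count 10), scaled by TMM and tested with edgeR 4.0.16 (robust quasi-likelihood, Benjamini-Hochberg adjustment, threshold 0.05), with shEn1_1 and shEn1_2 pooled against shScr. DESeq2 1.42.0 and limma-voom 3.58.1 were alternatives. The tests were also tried on simulated counts, with libraries varying independently and planted changes larger than any member's difference. That trial could not check variation shared between libraries of different arms, or differences as small as those of the members. Promoters were searched in Python 3.11.15. No 2 libraries agreed within sampling noise (chi-square per gene at least 10.7). The depth per library was 33423590 to 37810604 counts. Members and gene lists were chosen with earlier results of these data known. All members may be named by CPM. Fitted values are printed for EN1, for the highest and the most variable member of each role group and for the most variable gene of each further list, and others were chosen after their values were seen. The hairpin sequences and the murine samples of the study were not analysed here.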

Additional observations from a re-analysis of the deposited data

Results flagged for a closer look

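In 7 of 106 groups of 4 libraries, the highest or lowest library stood apart from the other 3 by Dixon's ratio (gap to the nearest library over the whole range) above the critical value at the 95% level, where chance gives about 5.3. In the shScr arm, MCM7 had a ratio of 0.872, with shScr_2 low at 427 CPM against 460 to 465 CPM, and CDC20 one of 0.838, with shScr_1 high at 506 CPM. In the arm labelled shEn1, shEn1_1.1 was high for PCNA (0.850), CCNB1 (0.894) and TTK (0.837), and shEn1_2.1 was high for AURKA (0.840). The TMM factor of shEn1_2.1, at 1.07, stood above the others of its arm (ratio 0.929). The cause of these values was not tested.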

How the results depend on the processing

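No member was called under any alternative. Genes called in the pooled comparison, 0 in the main analysis, numbered 2 with DESeq2, 1 with the replicate block, 1 without shScr_4 and shEn1_2.1, 1 without these and shScr_3 and shEn1_1.1, and 0 to 1 when 1 library was left out (1 without shScr_4), and at an unadjusted p of 0.05 numbered 44. For shEn1_1 against shScr there were 3 with DESeq2, 1 with only the libraries compared, 0 to 1 with 1 library left out (1 without shEn1_1.2 or shEn1_2.1) and 94 unadjusted, for shEn1_2 against shScr 43 unadjusted, and for shEn1_2 against shEn1_1 153 unadjusted. None of the adjusted calls was a member. Libraries with the same replicate number did not deviate together (correlations of 0.0100, −0.37, 0.18 and 0.30), so the numbers were not taken to pair them, and under the replicate block the S phase and mitosis medians were −0.074 and −0.077, 12 of the 47 members were higher in place of 22 (5 of 27 mitosis genes in place of 11), and TTK (−0.38, p = 0.0303) and HMMR (−0.38, p = 0.0256) had an unadjusted edgeR p under 0.05, with adjusted p = 1.00. That block fit compared shScr_1 and shScr_2 with all libraries labelled shEn1, since the replicate numbers of shScr_3 and shScr_4 occur only in shScr. Of the libraries thus left out, shScr_3 was lowest for 12 of 27 mitosis genes and shScr_4 for 9 of 20 S phase genes. The block and the loss of these libraries were not tested apart. The EN1 value ran from 0.057 to 0.57 with 1 library left out. The mitosis median of −0.014 became −0.16 without the 4 libraries and ran from −0.075 (without shScr_3) to 0.027 (without shScr_2) with 1 left out. Some log2 fold changes changed sign with DESeq2 size factors for RRM2 0.0043, with scaling by library size alone for TYMS −0.0021, with no filter for RRM2 0.0098, with DESeq2 for RRM2 0.0044 and with limma-voom for HMMR 0.012. They did so also with the replicate block for RRM2 0.070, E2F1 0.20, CDC20 −0.021, TPX2 −0.047, CENPE −0.15, MKI67 −0.0051 and KIFC1 −0.14, with the omission of shScr_4 and shEn1_2.1 for E2F1 0.013, TPX2 −0.0011 and KIFC1 −0.021, with the omission of shScr_3 and shEn1_1.1 for E2F1 0.064, TPX2 −0.028 and CENPE −0.049 and with the omission of all 4 of these libraries for E2F1 0.17, TPX2 −0.10, KIFC1 −0.20 and MYBL1 −0.039. When 1 library was left out at a time, the sign changed for some genes, over −0.031 to 0.15 for CDT1, −0.10 to 0.066 for RRM2, −0.090 to 0.10 for TYMS, −0.095 to 0.019 for CCNB1, −0.20 to 0.022 for TTK, −0.20 to 0.13 for HMMR, −0.71 to 0.79 for MYBL1, −0.053 to 0.060 for MCM7, −0.13 to 0.097 for CENPF, −0.11 to 0.083 for TOP2A, −0.19 to 0.031 for POLA1, −0.11 to 0.10 for E2F1, −0.0053 to 0.082 for TPX2, −0.048 to 0.23 for CENPE, −0.14 to 0.063 for AURKA, −0.34 to 0.051 for CCNE2, −0.0084 to 0.42 for KIFC1 and −0.015 to 0.12 for CDC20. Counting motifs only in bases before the start gave an E2F site for 10 of 18 S phase genes and a CHR for 13 of 21 mitosis genes. The causes were not tested. Differences about the size of the standard errors could not be detected with 4 libraries per arm, and larger ones also went uncalled. The smallest unadjusted edgeR p of the 14333 genes was 0.00038, and the smallest adjusted p was 0.999969.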
